A study of Mus musculus with 6 samples.

Results

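The genes described here keep proteins folded in the endoplasmic reticulum (ER), the membrane compartment through which secreted proteins pass, and carry its stress signal, the unfolded protein response. They were chosen by symbol, as 35 named chaperones, degradation factors, sensors and stress-induced genes, and all 35 were measured, among 18193 genes in all, by 83 probe sets (groups of short array probes that report 1 transcript). Their levels were compared between oviducts of female mice of the outbred MF1 stock with the genotype Wt1 ko/+, heterozygous for the loss of the transcription factor Wt1, and those with the genotype Wt1 +/+, wild type. Females of both genotypes had been mated to wild-type males and were sampled at embryonic day 2.5, with 3 heterozygous and 3 wild-type samples and 1 array each. The labels used here give neither the age of the females, nor the kind of ko allele, nor whether a sample was 1 animal or a pool. The p-values here set the difference between the genotypes against the spread among samples of a genotype, and that spread may be technical.

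When unfolded proteins build up in the ER, the chaperone Hspa5 (BiP) leaves the sensors of the ER membrane. Atf6 is cut to release a transcription factor, Ern1 (IRE1) splices the Xbp1 transcript, and Eif2ak3 (PERK) slows translation while favouring that of Atf4. Atf6 and Xbp1 mainly raise chaperones and the machinery of ER-associated degradation, which pulls misfolded proteins back into the cytosol for the proteasome. Atf4 raises amino acid genes and Ddit3 (CHOP), a factor tied to cell death under lasting stress. The oviduct epithelium secretes glycoproteins into the fluid around the early embryo, so its secretory cells rely on this system.

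The response acts through short promoter elements, shown here as a description of the genes by sequence. The genes were chosen for their known part in this response, so the shares of matches below are descriptions that depend on that choice. RefSeq promoters of build GRCm38.p6 were found for 31 of the 35 genes, and the 250 bases before each annotated start were searched on both strands. The ER stress response element (ERSE), read by Atf6 and Xbp1 together with NF-Y, was searched as CCAAT, any 9 bases and CCACG. It matched in 10 of the 31 genes (32.3%), against 35 of the 27025 genes of the promoter table (0.13%). The matches, turned to the direction of the motif with its fixed letters in capitals, were these.
Hspa5: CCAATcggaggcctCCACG
Hsp90b1, nearer match: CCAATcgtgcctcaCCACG
Hsp90b1, farther match: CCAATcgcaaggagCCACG
Calr: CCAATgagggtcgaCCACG
Canx: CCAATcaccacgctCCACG
Pdia6: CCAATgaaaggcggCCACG
Dnajc3: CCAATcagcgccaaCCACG
Creld2: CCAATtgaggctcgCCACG
Ero1b: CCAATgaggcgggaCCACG
Derl3: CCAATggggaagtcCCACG
Syvn1: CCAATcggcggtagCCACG

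Of these 10 genes, 8 were chaperones and folding factors, out of 14 with a promoter, and the others were Syvn1 and Derl3 of ER-associated degradation. None of the 6 promoters of the Atf4/Ddit3 arm matched. The ERSE-II, ATTGG, any base and CCACG, was found in Herpud1 alone, and in 0.037% of all genes. The core of the C/EBP-ATF element through which Atf4 acts, TGATGNAA, matched in 3 of the 31 genes, Chac1, Asns and Herpud1 (9.68%, against 3.91% of all genes), and the core TGACGTGG of the unfolded protein response element in none of them (0.603% of all genes). A match is a description of letters in this window, not a site shown to be used. The 250 bases of 3 genes, of which 1 each lies in the chaperone, degradation and Atf4/Ddit3 groups, follow 5′ to 3′ with the matches in capitals. No matches overlapped each other, and in Herpud1 and Chac1 the C/EBP-ATF core lies on the other strand and reads TTGCATCA as printed.
Hspa5, GRCm38.p6 chr2:34771840-34772089, plus strand: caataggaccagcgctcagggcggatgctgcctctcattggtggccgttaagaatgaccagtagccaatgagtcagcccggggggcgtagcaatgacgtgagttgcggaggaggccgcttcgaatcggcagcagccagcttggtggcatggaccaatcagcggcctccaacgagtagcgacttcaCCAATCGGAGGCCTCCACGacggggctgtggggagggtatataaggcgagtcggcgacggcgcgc
Herpud1, GRCm38.p6 chr8:94386179-94386428, plus strand: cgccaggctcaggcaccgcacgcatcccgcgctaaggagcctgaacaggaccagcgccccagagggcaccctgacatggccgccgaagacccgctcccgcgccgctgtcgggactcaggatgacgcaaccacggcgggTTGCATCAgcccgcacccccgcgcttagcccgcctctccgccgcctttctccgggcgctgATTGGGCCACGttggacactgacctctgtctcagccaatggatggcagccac
Chac1, GRCm38.p6 chr2:119350992-119351241, plus strand: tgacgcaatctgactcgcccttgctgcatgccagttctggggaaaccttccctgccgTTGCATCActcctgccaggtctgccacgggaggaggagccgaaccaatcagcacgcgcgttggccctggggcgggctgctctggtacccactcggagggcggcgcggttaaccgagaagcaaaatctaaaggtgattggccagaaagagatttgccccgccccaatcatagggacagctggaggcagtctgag

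**Figure D1:**
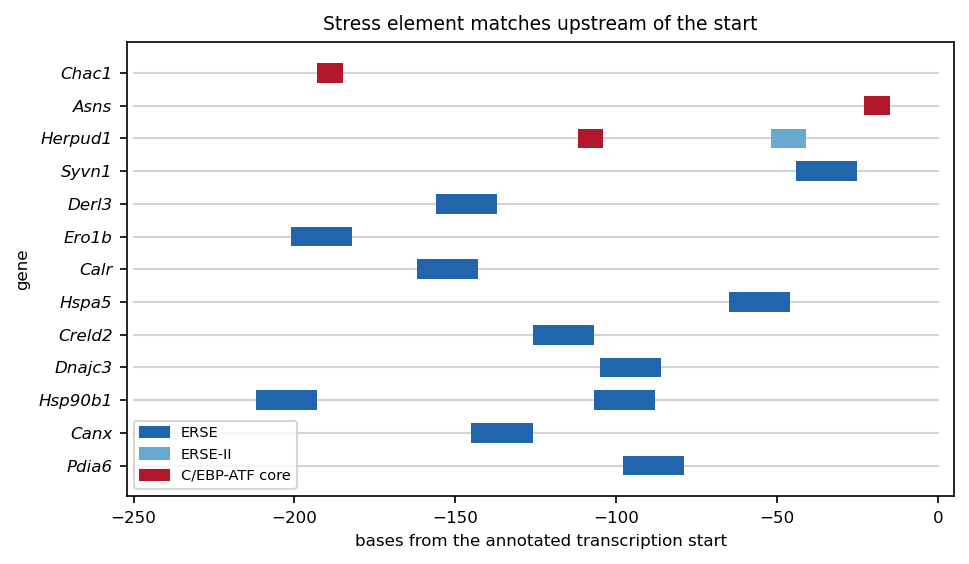
Position of each match in bases from the annotated start (0 at the right) for the 13 genes with at least 1 match, with ERSE in dark blue, ERSE-II in light blue and the C/EBP-ATF core in red. ERSE matches of the chaperones lie between 46 and 212 bases before the start, and Herpud1 holds both an ERSE-II and a C/EBP-ATF core.

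Values are intensities after quantile normalization, and changes are log2 differences, heterozygous minus wild type, fitted with limma over all 18193 genes. Each gene was read from its brightest probe set, and all 35 were brighter than the median probe set. The oviduct label could be checked on Ovgp1, the oviduct's own secreted glycoprotein, which read 20429.5, 20429.5 and 20967 in heterozygous and 19676, 20015 and 19676 in wild-type arrays. Wt1 itself read 2231, 2472 and 3534 in heterozygous replicates 1, 2 and 3, and 4607, 4262 and 3248 in wild-type replicates 1, 2 and 3. The array labelled heterozygous replicate 3 therefore lay above wild-type replicate 3 (log2 change -0.57, standard error 0.23, limma adjusted p = 0.771). The labels do not place its single probe set within or outside the deleted stretch. RNA quality was not even: the Actb control ratio of 3' to 5' signal, which rises when RNA is broken, was 1.67 to 2.49 in heterozygous arrays and 1.74 and 2.40 in wild-type replicates 1 and 2, but 5.90 in wild-type replicate 3.

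No gene of the set passed an adjusted p of 0.05 (limma, 0 of 35, against 3 of 18193 genes or 0.0165%). At an unadjusted p under 0.05 there were 6 of 35 (17.1%), all lower in heterozygous oviducts: Ddit3, Chac1, Edem1, Herpud1, Syvn1 and Hyou1. Over all genes 6.44% reached that level in either direction and 3.77% in the lower direction. The genotypes did not overlap in 8 of the 35 genes (22.9%), these 6 with Atf4 on the lower side and Ern1 on the higher, against 11.8% of all genes. Both shares are descriptions and were not tested, since the set had been proposed with results of these data in view. In whole oviducts, fewer cells of a type and less RNA per cell cannot be told apart.

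The direction was not the same in every group of genes, a difference that was counted and not tested. All 7 genes of ER-associated degradation had a lower mean in heterozygous oviducts, with a median log2 change of -0.25, and so had all 6 genes of the Atf4/Ddit3 arm, with a median of -0.45. Of the 16 chaperones and folding factors 8 were higher and 8 lower, with a median of 0.0061. Over all genes 55.0% were lower, with a median of -0.027.

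**Figure D2:**
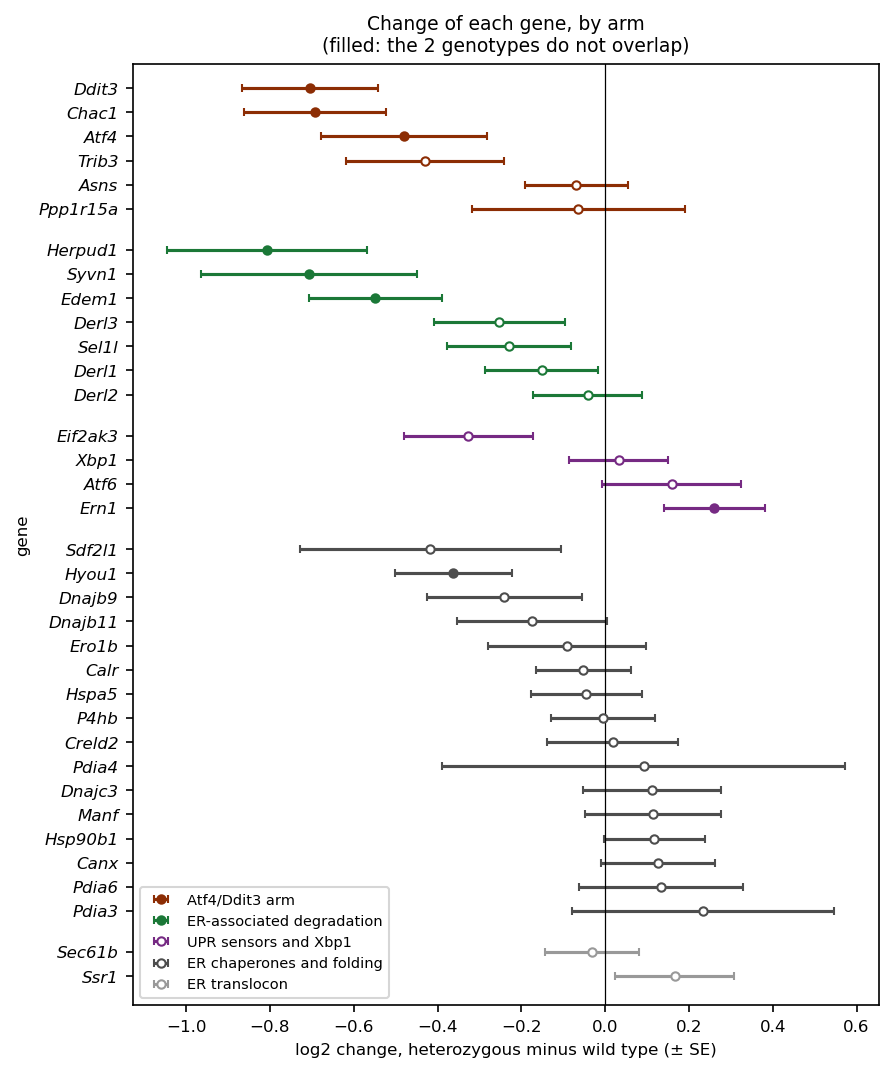
Log2 change of each gene, heterozygous minus wild type, with its limma standard error, by group. Filled points mark the 8 genes whose arrays did not overlap between the genotypes. The degradation and Atf4/Ddit3 genes all lie left of 0, between -0.81 and -0.042, while the chaperones spread on both sides.

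In the Atf4/Ddit3 arm, Ddit3 read 577, 659.8 and 786 in heterozygous replicates 1, 2 and 3, and 975, 1166 and 1141 in wild-type replicates 1, 2 and 3. Every heterozygous array was below every wild-type array, by a log2 change of -0.70 (standard error 0.16, limma adjusted p = 0.503, exact permutation p = 0.1, the smallest that 3 against 3 arrays can give). Chac1, an enzyme that breaks down glutathione and a target of Atf4 and Ddit3, read 327, 345 and 348 in heterozygous and 449, 558 and 661 in wild-type arrays. The heterozygous arrays lay close together and the wild-type arrays spread upward (log2 change -0.69, standard error 0.17, limma adjusted p = 0.532). Atf4, the transcription factor at the head of this arm, read 2070.3, 2342.5 and 2388 in heterozygous and 2613.5, 2921 and 4113 in wild-type arrays. These did not overlap either (log2 change -0.48, standard error 0.20, limma adjusted p = 0.786), with wild-type replicate 3 well above the rest. Without that array, the one with the highest Actb ratio, the log2 change was -0.29, and with the mean of the 3 Atf4 probe sets it was -0.22.

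Trib3, a pseudokinase that Ddit3 and Atf4 induce, read 226, 166 and 202 in heterozygous and 218, 284 and 299 in wild-type arrays. Heterozygous replicate 1 overlapped wild-type replicate 1, and the log2 change was -0.43 (standard error 0.19, limma adjusted p = 0.803). Asns, asparagine synthetase, and Ppp1r15a (GADD34), which helps to restart translation, differed by less than 1 standard error, at -0.069 (standard error 0.12) and -0.064 (standard error 0.25). The 95% interval of the log2 change ran from -0.37 to 0.23 for Asns and from -0.69 to 0.56 for Ppp1r15a. The 6 arrays thus leave room for changes of any size within these intervals.

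Among the degradation genes, Herpud1, which organises the ubiquitin ligase complex in the ER membrane and carries both the ERSE-II and the C/EBP-ATF core shown above, had the most negative log2 change of the set. It read 2503, 2856 and 4202 in heterozygous replicates 1, 2 and 3, and 6142, 5798 and 4512 in wild-type replicates 1, 2 and 3. Heterozygous replicate 3 came close to wild-type replicate 3, and the other arrays were far apart (log2 change -0.81, standard error 0.24, limma adjusted p = 0.631). The ubiquitin ligase of that complex, Syvn1 (Hrd1), read 1913, 2601 and 3228 in heterozygous and 3255, 4204 and 5096 in wild-type arrays. The genotypes were separate only by the narrow step between heterozygous replicate 3 and wild-type replicate 1 (log2 change -0.71, standard error 0.26, limma adjusted p = 0.738). Edem1, a lectin that hands over misfolded glycoproteins, read 1418, 1566 and 1978 in heterozygous and 2489.8, 2418 and 2284 in wild-type arrays. Its wild-type arrays lay close together above all heterozygous arrays (log2 change -0.55, standard error 0.16, limma adjusted p = 0.610).

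The other degradation genes overlapped between the genotypes. The derlins, membrane proteins of the same channel, stood at log2 changes of -0.25 for Derl3, -0.15 for Derl1 and -0.042 for Derl2. Sel1l, the partner of Syvn1, stood at -0.23. Standard errors of these 4 genes ran from 0.13 to 0.16 and limma adjusted p from 0.870 to 0.970.

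**Figure D3:**
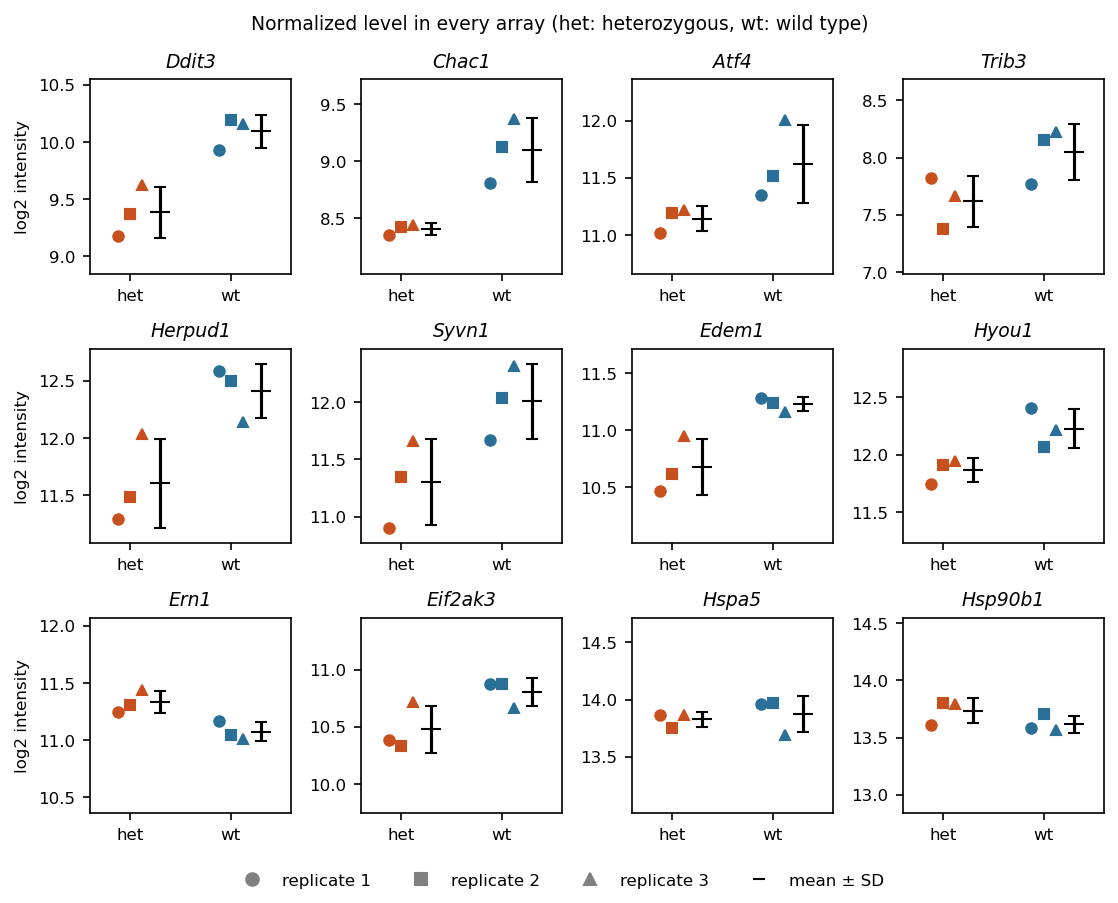
Normalized log2 intensity in every array for 12 genes, heterozygous (orange) left of wild type (blue), with symbols for the replicates and the mean ± SD (n = 3) beside them. Each panel spans the same log2 range. Ddit3, Chac1, Atf4, Herpud1, Syvn1, Edem1 and Hyou1 lie lower and Ern1 higher in every heterozygous array than in any wild-type array, and Hspa5 and Hsp90b1 overlap.

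Of the sensors, Ern1 was the only gene of the set that was higher without overlap. It read 2433, 2541 and 2777 in heterozygous and 2299, 2114 and 2056 in wild-type arrays (log2 change 0.26, standard error 0.12, limma adjusted p = 0.809). Its dimmer probe sets all overlapped and lay below the median probe set, at log2 changes from -0.13 to 0.38. Eif2ak3, which acts upstream of Atf4, read 1333, 1291 and 1680.1 in heterozygous and 1880.0, 1872 and 1619.5 in wild-type arrays. Heterozygous replicate 3 lay above wild-type replicate 3, and the log2 change was -0.33 (standard error 0.15, limma adjusted p = 0.817).

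Xbp1 read 11385, 10871 and 12273 in heterozygous and 11920.5, 11242 and 10598 in wild-type arrays, with full overlap (log2 change 0.032, 95% interval -0.26 to 0.32). Its spliced form was not measured separately. Atf6 read 1403, 1207 and 1286 in heterozygous and 1180.3, 1370.5 and 968 in wild-type arrays, again with overlap (log2 change 0.16, 95% interval -0.25 to 0.57).

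The main chaperones overlapped as well. Hspa5, the master chaperone that binds unfolded chains, read 14957, 13827 and 14887 in heterozygous and 15921, 16072 and 13204 in wild-type arrays (log2 change -0.045, 95% interval -0.37 to 0.28). Hsp90b1 (GRP94), an ER chaperone of the Hsp90 family, read 12472.5, 14272 and 14199 in heterozygous and 12251, 13332.5 and 12119.7 in wild-type arrays (log2 change 0.12, 95% interval -0.18 to 0.41). Neither gene separated the genotypes, and the intervals leave room for changes of about those sizes. Calr, the lectin chaperone calreticulin, read 10295, 9766 and 9845 in heterozygous and 9597, 10669 and 10772 in wild-type arrays (log2 change -0.052). P4hb, protein disulfide isomerase, read 10359, 9834 and 9855.5 in heterozygous and 9089.6, 10954 and 10198 in wild-type arrays (log2 change -0.0054). For these 2 genes wild-type replicate 1 held the lowest value.

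Hyou1, a large chaperone that helps Hspa5 to exchange its nucleotide, was the chaperone whose genotypes did not overlap, at 3433, 3847 and 3946 in heterozygous and 5428, 4295 and 4745 in wild-type arrays (log2 change -0.36, standard error 0.14, limma adjusted p = 0.748). The cochaperones of Hspa5 went both ways with overlap: Dnajb9 (ERdj4) stood at a log2 change of -0.24, Dnajb11 (ERdj3) at -0.18, its partner Sdf2l1 at -0.42 and Dnajc3 (p58IPK) at 0.11. Single arrays weighed heavily on these: Sdf2l1 stood at -0.17 without wild-type replicate 2 and at -0.69 without wild-type replicate 1, and Dnajb11 at -0.043 and -0.34 without the same arrays. Canx, calnexin, stood at 0.13 and Pdia3, the isomerase that works with it, at 0.23. Pdia6 and Pdia4, further disulfide isomerases, stood at 0.13 and 0.092, and Ero1b, which reoxidises them, at -0.092. Manf and Creld2, small proteins induced by ER stress, stood at 0.11 and 0.018, and the translocon subunits Sec61b and Ssr1 at -0.031 and 0.17. The limma adjusted p of all these genes but Hyou1 was 0.891 or more.

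The 10 genes with an ERSE match, mostly chaperones, were as mixed as the chaperones in direction. Their median log2 change was -0.014, with 5 higher and 5 lower, and those other than Syvn1 and Derl3 lay between -0.092 and 0.13. The 21 genes with a promoter and no ERSE match had a median of -0.18, with 5 higher and 16 lower. These are counts over genes that share arrays, given without a test.

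Spread among arrays differed by group. Mean deviations of the 7 degradation genes from their 6-array means were -0.35, -0.25 and 0.012 in heterozygous replicates 1, 2 and 3, and 0.14, 0.27 and 0.175 in wild-type replicates 1, 2 and 3. For the Atf4/Ddit3 arm they were -0.125, -0.31 and -0.17 in heterozygous and 0.017, 0.245 and 0.35 in wild-type arrays, with the widest steps among the wild-type arrays. For the 16 chaperones the heterozygous arrays were within 0.042 of 0, whereas wild-type replicate 2 stood at 0.19 and wild-type replicate 3 at -0.13. Wild-type replicate 3, with the high Actb ratio, held the lowest value of 8 of the 16 chaperones, and without it 12 of the 16 were lower in heterozygous oviducts (median -0.074).

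**Figure D4:**
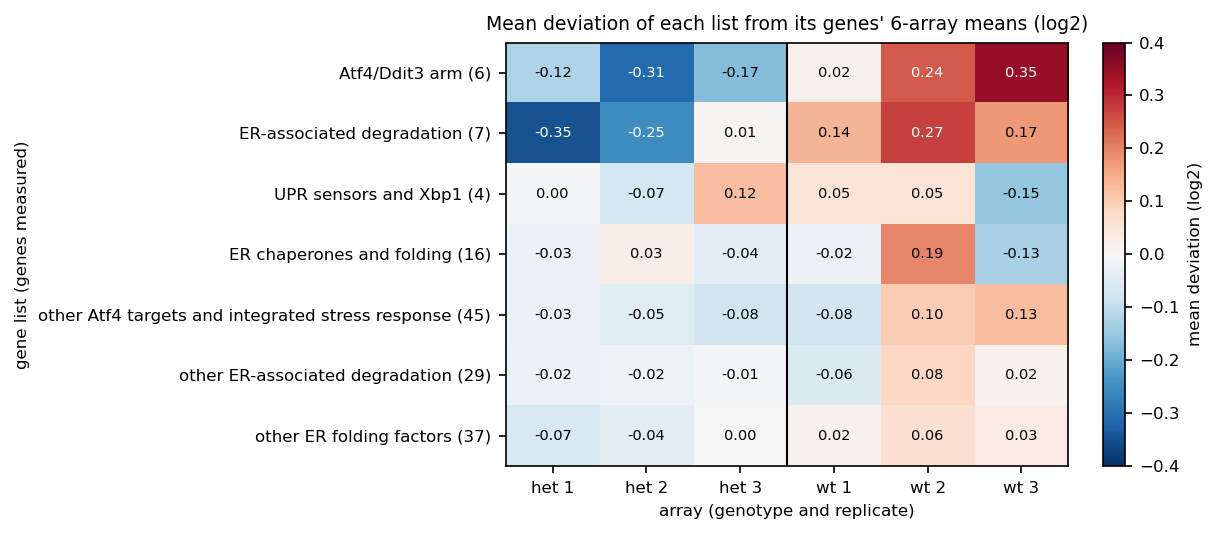
Mean deviation (log2) of each list from its genes' 6-array means, heterozygous arrays left of the line and wild-type arrays right of it, with the number of genes in brackets. The degradation and Atf4/Ddit3 rows go from blue to red across the line, with heterozygous replicate 3 at 0.012 for degradation, and the 3 lists drawn at the bottom stay within 0.13 of 0.

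The arrays were also split by the Actb ratio, although the higher class joins wild-type replicate 3, at 5.90, with heterozygous replicate 1 and wild-type replicate 2, at 2.49 and 2.40, so its members are not of like RNA quality. Among the 3 arrays of lower Actb ratio (heterozygous replicates 2 and 3, wild-type replicate 1) and the 3 of higher ratio (heterozygous replicate 1, wild-type replicates 2 and 3), the log2 change was -0.44 and -0.998 for Ddit3 and -0.38 and -0.89 for Chac1. It was -0.83 and -1.03 for Herpud1, -0.50 and -0.73 for Edem1 and -0.48 and -0.40 for Hyou1. Atf4 (-0.14 and -0.74) and Syvn1 (-0.17 and -1.27) differed little in the arrays of lower ratio, and Ern1 stood at 0.21 and 0.22. Each of these values rests on a single array of 1 genotype, and the part of RNA quality in them was not tested.

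Genes with several probe sets showed how far the choice of probe set matters. Of 25 such genes, 11 had the same sign at every probe set and 14 had mixed signs. Herpud1 and Syvn1 were lower at both of their probe sets, with log2 changes of -0.77 and -0.66 at the dimmer ones. The dimmer Herpud1 probe set overlapped, since heterozygous replicate 3, at 3269.6, lay above wild-type replicate 3, at 2970.0. The dimmer Syvn1 probe set read 1712.5, 1909 and 2207 in heterozygous and 2356, 3366 and 3619 in wild-type arrays, without overlap. Of the dimmer probe sets of Atf4, the bright one stood at -0.40, without overlap, and the other, at intensities under 12, at 0.23. Both probe sets of Trib3 and of Asns were lower, with log2 changes of -0.64 and -0.29 at the dimmer ones, again without overlap. Ddit3 was lower at its dimmer probe set too (-0.33), there with overlap. The brightest probe sets of Atf4, Trib3, Syvn1, Hyou1, Derl1, Canx and Xbp1 belong to types that can also take signal from other transcripts. So does the single probe set of Wt1.

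Other genes depended on the probe set. The dimmer Edem1 probe set had a log2 change of 0.14, with overlap, against -0.55 at the brighter one. The dimmer Derl2 probe set read 781, 760.1 and 912 in heterozygous and 1128, 1254.6 and 1186 in wild-type arrays (log2 change -0.54, limma adjusted p = 0.816 over probe sets), whereas the brighter one overlapped. The 4 dimmer probe sets of Sel1l all had positive changes, from 0.028 to 0.68, and the dimmer ones of Derl1 stood at 0.15, 0.19 and -0.40. Hyou1 stood at 0.23 and -0.24 at its dimmer probe sets. The dimmer Hsp90b1 probe set read 3711, 6738 and 7676 in heterozygous and 7556, 4026 and 726 in wild-type arrays, so that its 3 lowest values were those of the 3 arrays with the higher Actb ratio. The part of RNA quality in these probe sets was not tested. Over all 83 probe sets 45 were lower (54.2%), and 14 did not overlap (16.9%), 13 of them lower, against 10.5% of all 45037 probe sets tested. With limma 9 of the 83 stood at an unadjusted p under 0.05 (5.18% of all probe sets) and 0 passed an adjusted p of 0.05 (0.00666% of all probe sets).

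**Figure D5:**
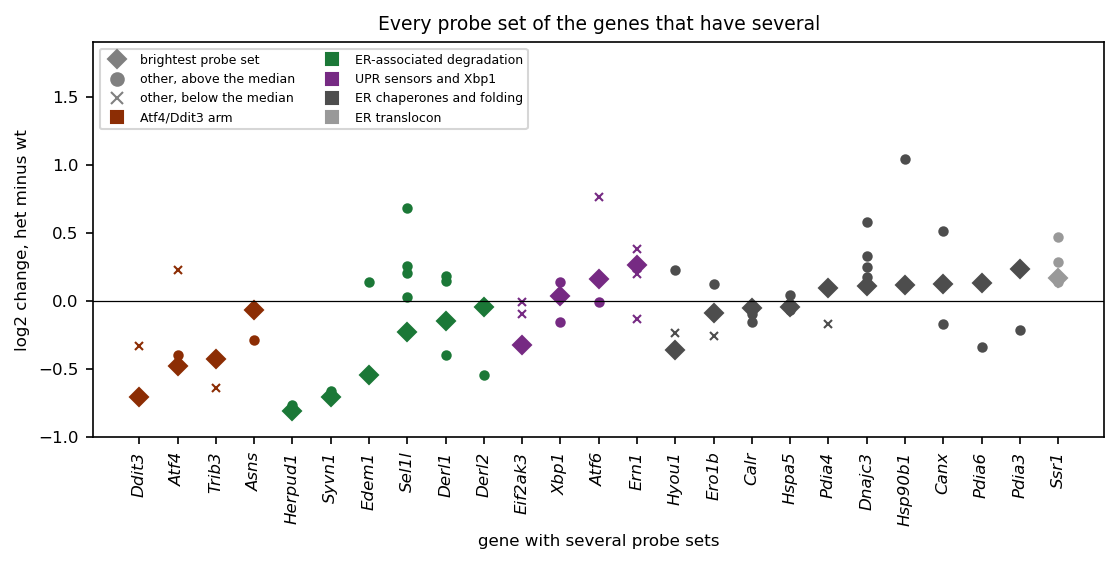
Log2 change, heterozygous minus wild type, of every probe set of the 25 genes that have several, coloured by group. Diamonds are the brightest probe sets, circles and crosses the other ones with a mean above or below the median of all probe sets. Herpud1 and Syvn1 points lie together between -0.81 and -0.66, whereas those of Sel1l, Derl1 and Hyou1 fall on both sides of 0.

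Further genes of the same pathways were listed by role, and the median log2 changes of these lists ran from -0.053 to 0.029. Of 29 other degradation factors, 16 were lower, with a median log2 change of -0.049 and 0 at an unadjusted p under 0.05. The genotypes did not overlap in 5 of these factors, all lower, against 1232 lower and 909 higher of all 18193 genes. Of 45 other Atf4 targets and integrated stress response genes 29 were lower (median -0.053), and 24 of the 45 were highest in wild-type replicate 3, the array in which 29.2% of all genes were highest. Nupr1, a stress-induced chromatin protein, read 3651, 3070.2 and 3241 in heterozygous and 4649.6, 4483 and 4059 in wild-type arrays (log2 change -0.41, limma adjusted p = 0.670). Aldh18a1, of proline synthesis, stood at -0.32 (limma adjusted p = 0.738), and these 2 were the only ones of that list at an unadjusted p under 0.05.

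Of 37 other folding factors 22 were lower (median -0.022), with Pdia2 at -0.53 and Creld1 at -0.49 on the lower side and Qsox1, a disulfide-forming oxidase, at 0.48 on the higher, none overlapping. Their limma adjusted p was 0.622, 0.670 and 0.748. Of 32 translocation and glycosylation genes 19 were higher (median 0.029), and of 17 further stress transducers 12 were lower (median -0.047), with 0 at an unadjusted p under 0.05 in either list. No gene of these 5 lists passed the adjusted threshold with limma.

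Markers of other cell types also differed between the arrays. Smooth muscle markers were higher in heterozygous oviducts in 8 of 8 genes, with a summed intensity of 34043 to 46325 in heterozygous and 29856 to 32962 in wild-type arrays. Stromal markers were higher in 8 of 8 (47111 to 55205 in heterozygous, 41924 to 46347 in wild-type arrays), adipocyte markers in 6 of 7 (1095 to 1853 in heterozygous, 709 to 783 in wild-type arrays) and uterine gland markers in 7 of 8 (28038 to 28170 in heterozygous, 23452 to 25472 in wild-type arrays). None of these 4 sums overlapped between the genotypes. Plasma cells are rich in ER, and of their 8 markers 4 were higher, led by Jchain at a log2 change of 0.86, and 4 were lower. Their summed intensity did not overlap either (9705 to 10632 in heterozygous, 6683 to 8836 in wild-type arrays). Ciliated cell markers were higher in 1 of 7 (15147 to 18436 in heterozygous, 18274 to 19510 in wild-type arrays).

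The markers of the oviduct's secretory epithelium were higher in 4 of 7 genes, and their sums overlapped (45352 to 46326 in heterozygous and 42930 to 47317 in wild-type arrays). Ovgp1 alone, at the values given above, made up a large part of each of these sums, so they say less about the other markers. Other leukocyte markers were higher in 5 of 8 (11246 to 13916 in heterozygous, 9493 to 13961 in wild-type arrays) and ovarian markers in 2 of 7 (2230 to 2316 in heterozygous, 2110 to 2483 in wild-type arrays). All secretory, ciliated, muscle and stromal markers lay above the median of all probe sets, against 4 of 8 for plasma cells, 6 of 8 for other leukocytes, 4 of 7 for adipocytes and for ovary and 5 of 8 for uterine glands. Their part in the changes of the ER genes was not tested.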

How the data were processed

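Oviduct RNA (1 µg per sample, per the labels) was measured on 6 one-colour arrays. The authors deposited linear intensities of 45101 probe sets, 1 for each array. No program for the summary of probes is given in the labels. Found from the values, the mean without 2% of probe sets at each end was 500.002 in every array, so the deposited intensities had been scaled. No detection calls were used. The 64 control probe sets were left out, intensities under 1 were set to 1, and log2 values were quantile normalized, since array medians differed by 0.147. The platform annotation gave 1 symbol for 34945 probe sets, several for 932 and none listed for 9160. The brightest probe set stood for each of 18193 genes.

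Differences were fitted with limma 3.58.1 in R 4.3.3 (lmFit, eBayes, two-sided, Benjamini-Hochberg over all genes, threshold 0.05), with no covariate, and each gene also had an exact permutation test, two-sided (20 assignments, smallest p 0.1). The number of arrays limits the precision. The scripts were tested on simulated data. Array values are given for Hspa5, Hsp90b1, Xbp1, Atf4, Ddit3, Atf6, Ern1 and Eif2ak3, the 10 genes of smallest p, the 5 brightest, the 3 dimmest and those without overlap. Dimmer probe sets and marker genes were chosen after their values were seen. Of the other lists, up to 3 genes at an unadjusted p under 0.05 without overlap were named. The genes, lists and tests were chosen with earlier results of these data known. Of the listed further genes and markers, those without a probe set of a single symbol were left out. Alternatives were another scaling, pseudocount, filter, variance model and probe set rule, array weights, the replicate number or the Actb ratio class as a block, and leaving out each array.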

Additional observations from a re-analysis of the deposited data

How the results depend on the processing

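Across 15 alternatives, 0 of the 35 genes passed the adjusted threshold in any (limma, lowest adjusted p 0.185 for Chac1, with array weights), and 4 to 12 stood at an unadjusted p under 0.05, against 6 here: 12 with array weights (34.3%, against 14% of all genes), 9 without wild-type replicate 1 (25.7%, against 10.5%) and with a trended, robust variance (against 6.89%), and 4 without heterozygous replicate 1, heterozygous replicate 2 or wild-type replicate 3 and with the mean of probe sets (11.4%, against 4.63% to 5.93%). Ddit3, Chac1, Atf4, Trib3, Herpud1, Edem1 and Syvn1 were among the 20 genes that kept their sign throughout. The count over all genes, 3, was 1 both with a trended, robust variance and with dim probe sets left out, 7 with array weights, and 0 with the replicate block, without cross-hybridizing probe sets, with the Actb ratio block and when any array was left out. The Atf4/Ddit3 median was -0.32 without wild-type replicate 3, and -0.59 to -0.32 over the left-out arrays. All 7 degradation genes stayed lower except Sel1l at 0.19 with the mean of probe sets, Derl1 at 0.15 without cross-hybridizing probe sets and Derl2 at 0.034 without heterozygous replicate 1.

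Of 525 gene values 31 changed sign, in 15 genes; of these, Hyou1 had the most negative change, and it stood at 0.23 without cross-hybridizing probe sets. Deposited scaling gave -0.015 for Creld2 and -0.041 for Xbp1. Array weights gave -0.17 for Pdia4 and -0.12 for Creld2. The mean of probe sets gave -0.038 for Pdia4 and -0.10 for Pdia6. The Actb ratio block gave 0.043 for P4hb and 0.098 for Ppp1r15a. Over left-out arrays the ranges were -0.22 to 0.54 for Pdia4, -0.12 to 0.42 for Pdia3, -0.059 to 0.24 for Pdia6, -0.11 to 0.14 for Creld2, -0.26 to 0.051 for Ero1b, -0.098 to 0.034 for Derl2, -0.078 to 0.057 for P4hb, -0.34 to 0.098 for Ppp1r15a, -0.015 to 0.075 for Xbp1, -0.14 to 0.005 for Hspa5, -0.037 to 0.19 for Dnajc3 and -0.018 to 0.21 for Manf. Another 14 genes kept their sign and moved by over 1.5 times when 1 array was left out, Atf4, Sdf2l1, Dnajb11, Dnajb9 (-0.39 to -0.13), Derl3 (-0.38 to -0.14), Derl1 (-0.22 to -0.053), Sel1l (-0.31 to -0.15) and Atf6 (0.027 to 0.28) among them. The cause of these changes was not tested. Same-numbered arrays did not vary together (correlations of deviations -0.098, -0.028 and -0.078), so the replicate block, which left 5 genes at an unadjusted p under 0.05, was not taken as the design. Wt1 has no value without cross-hybridizing probe sets.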

Other observations

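The degradation genes Herpud1 and Edem1 shared an order of the arrays, which was noticed after the values were seen and was not tested. From low to high, Herpud1 and Edem1 both ran through heterozygous replicates 1, 2 and 3 and then wild-type replicates 3, 2 and 1. That order was held by 27 of 18193 genes (0.148%). Only genes lower without overlap can hold it, and these were 1232 over all genes, so the share over all genes makes it look rarer than it is among them. The other 5 degradation genes had other orders. Syvn1 had the wild-type arrays in the opposite order, and Atf4 and Chac1 of the Atf4/Ddit3 arm shared the full order of Syvn1. Wt1 had the order of Herpud1 and Edem1, save that heterozygous replicate 3, at 3534, lay above wild-type replicate 3, at 3248. This near match was also seen only after the values were known. Genes that come this close to the order were not counted, and a link with Wt1 was not tested.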
